A study of Mus musculus with 13 samples.

Results

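The miR-34 family is represented on the array by 6 mature mouse forms, out of 1079 mouse miRNAs. They are mmu-miR-34a-5p, mmu-miR-34b-5p and mmu-miR-34c-5p, and the opposite strands mmu-miR-34a-3p, mmu-miR-34b-3p and mmu-miR-34c-3p, written below without the species prefix. They were taken by name, as every non-control row for a mature form of miR-34a, miR-34b or miR-34c. The miRNAs were measured in 13 primary abdominal neuroblastomas that arose spontaneously in TH-MYCN mice, a transgenic strain in which the tyrosine hydroxylase promoter drives MYCN in the sympathetic lineage. One group is 7 caspase-8 deficient tumours of mice with bone marrow metastasis, and the other is 6 tumours with wild-type caspase-8 and no metastasis to the bone marrow. Genotype and metastasis differ together, so that their parts in any difference cannot be told apart. The labels give neither the allele and cell types behind the deficiency nor the age of the mice. Each tumour is labelled a biological replicate and was read on 1 single-colour array.

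The miR-34 miRNAs are direct transcriptional targets of the tumour suppressor p53. Their 5p strands share a seed, the stretch near the 5′ end that pairs with target transcripts, and in human cells they lower the output of cell cycle and survival genes such as CDK6, BCL2 and MET, and of MYCN itself. In human neuroblastoma, MIR34A lies in the region of chromosome arm 1p that is often lost. Caspase-8 is the protease that starts apoptosis downstream of death receptors.

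The mature sequences are given first because the seed defines the family and the remaining bases tell its members apart. They are RefSeq entries on the mouse GRCm38.p6 build, written 5′ to 3′ with the seed, bases 2 to 8, in capitals. Of the 6 forms, 5 matched an entry in the table. miR-34c-5p is named only.
miR-34a-5p: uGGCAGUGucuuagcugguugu
miR-34b-5p: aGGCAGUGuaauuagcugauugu
miR-449a-5p: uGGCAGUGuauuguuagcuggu
miR-449c-5p: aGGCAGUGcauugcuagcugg
miR-34a-3p: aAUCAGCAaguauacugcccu
miR-34b-3p: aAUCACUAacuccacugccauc
miR-34c-3p: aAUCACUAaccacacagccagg

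The 4 printed 5p forms carry the same seed, and miR-449a-5p and miR-449c-5p, of a related family known from multiciliated epithelium, are shown for that reason. Compared base by base from the 5′ end with no gaps, miR-34a-5p and miR-34b-5p had the same base at 11 of 22 positions, and miR-34a-5p and miR-449a-5p at 15 of 22. miR-34b-5p has 23 bases, while miR-34a-5p and miR-449a-5p have 22, and a count with no gaps misses matches beyond an inserted base. The count therefore does not rank the members by likeness. The 3p strands carry other seeds. miR-34b-3p and miR-34c-3p share theirs and had the same base at 17 of 22 positions, whereas the seed of miR-34a-3p differs from it.

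The family comes from separate loci. miR-34a-5p lies at chr4:150068473-150068494 on the plus strand and miR-34a-3p at chr4:150068517-150068537, in a hairpin that overlaps no other gene of the RefSeq table. miR-34b-5p lies at chr9:51103610-51103632 on the minus strand, miR-34b-3p at chr9:51103574-51103595 and miR-34c-3p at chr9:51103044-51103065. The Mir34b and Mir34c hairpins are 451 bases apart, and both overlap the protein-coding genes Hoatz and Btg4. Exon and intron positions were not used here. The miR-449 forms lie on chromosome 13, at chr13:113037549-113037570 for miR-449a-5p and chr13:113036008-113036028 for miR-449c-5p. The array files carry no positions of their own.

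Spots of a probe were averaged, probes of a miRNA were summed, and sums were scaled to each array's 75th percentile and converted to log2. All levels and differences below are on this log2 scale unless stated. Between 375 and 469 mouse miRNAs were detected per deficient tumour, against 338 to 452 per wild-type tumour. The arrays lay on 2 slides, which were also scanned at 2 times. Slide 1 held 5 deficient and 2 wild-type tumours, and slide 2 held 2 deficient and 4 wild-type tumours. Differences are therefore also given within slides where they matter. miRNAs detected on at least 6 arrays, 419 in all, were tested with limma.

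Detection divided the family by strand. Over all 1079 mouse miRNAs on the array, 294 were detected in every tumour and 547 in none. The 5p strands miR-34a-5p, miR-34b-5p and miR-34c-5p were detected in 7 of 7 deficient and 6 of 6 wild-type tumours. The 3p strands were detected in 0 of 7 deficient and 0 of 6 wild-type tumours and were not tested for a group difference. Their signals before scaling, on the linear scale, were low in every tumour. miR-34a-3p lay between −12.5 and −1.28 in deficient tumours and between −8.58 and −1.83 in wild-type tumours, negative after background subtraction in every tumour. miR-34b-3p lay between 4.19 and 17.9 in deficient tumours and between 2.43 and 15.4 in wild-type tumours. miR-34c-3p lay between −5.39 and 7.90 in deficient tumours and between 0.408 and 8.003 in wild-type tumours. The unscaled signal of miR-34c-5p, which was detected, was 31.0 to 102.1 in deficient tumours and 32.3 to 147.1 in wild-type tumours. Probes differ in brightness, so that the levels of strands and members are not ranked against each other. The 4 miR-449 forms on the array, miR-449a-5p, miR-449a-3p, miR-449b and miR-449c-5p, were likewise detected in no tumour.

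**Figure D1:**
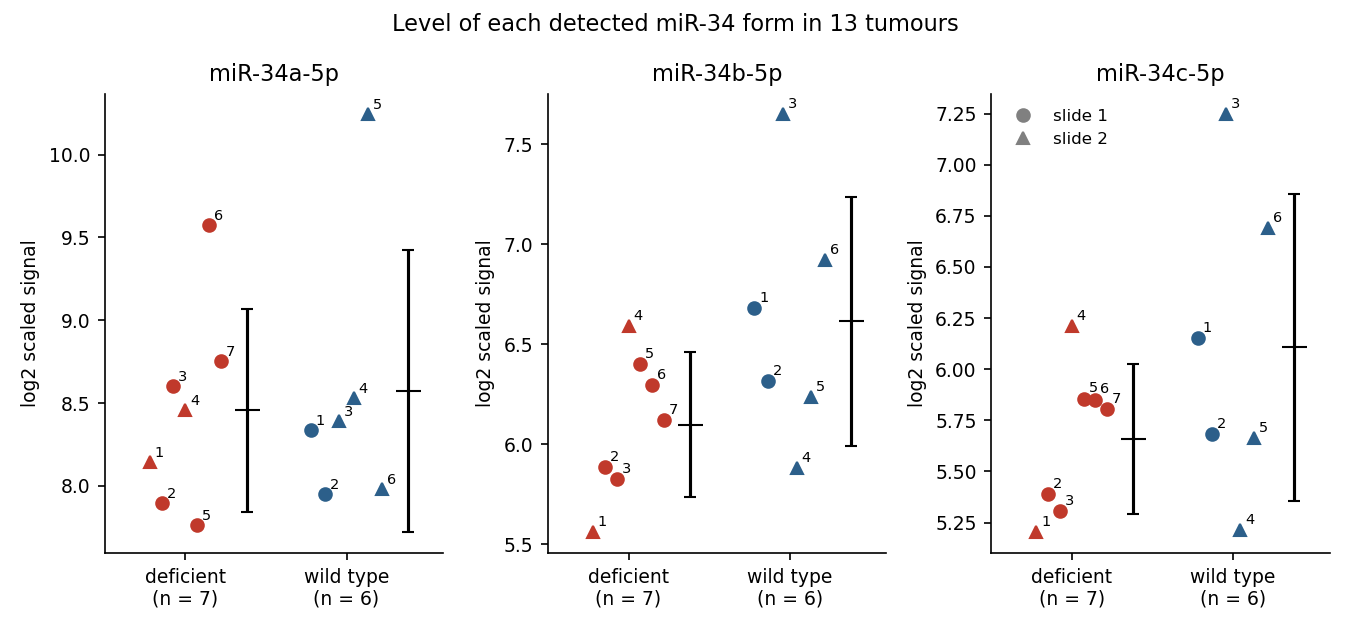
Level of miR-34a-5p, miR-34b-5p and miR-34c-5p (log2 scaled signal, one panel each, with separate axes) in 7 deficient tumours, left, and 6 wild-type tumours, right. Each point is 1 tumour with its replicate number, circles are slide 1 and triangles slide 2, and bars are the mean ± SD. The groups overlap in every panel. Wild-type replicate 5 stands highest for miR-34a-5p at 10.24, and wild-type replicate 3 highest for miR-34b-5p at 7.65 and miR-34c-5p at 7.25.

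miR-34a-5p, the member best known as a tumour suppressor in neuroblastoma, did not differ between the groups by more than their spread. In deficient tumours it ranged from 7.76, in replicate 5, through a median of 8.46 up to 9.57, in replicate 6. In wild-type tumours the lowest level was 7.95, in replicate 2, the median 8.36 and the highest 10.24, in replicate 5. The groups overlapped over most of their ranges, and 3 of 7 deficient tumours lay below the wild-type median. The mean was 8.46 ± 0.61 (SD, n = 7) in deficient and 8.57 ± 0.85 (SD, n = 6) in wild-type tumours. The groups differed by −0.12 (SE 0.38, 95% interval −0.93 to 0.70, limma adjusted p = 0.959). As a fold this is 0.923, with an interval of 0.524 to 1.63. Wild-type replicate 5 set the sign, since the difference was 0.22 without it. The sign also differed between the slides, at 0.38 within slide 1 and −0.49 within slide 2.

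miR-34b-5p had a lower mean in deficient tumours, but the difference did not pass the threshold. Its lowest, median and highest levels in deficient tumours were 5.56, 6.12 and 6.59, in replicates 1, 7 and 4. In wild-type tumours they were 5.88, 6.50 and 7.65, with replicate 4 lowest and replicate 3 highest. The groups overlapped, with 3 wild-type tumours above every deficient one and 6 of 7 deficient tumours below the wild-type median. The mean was 6.10 ± 0.36 (SD, n = 7) in deficient and 6.61 ± 0.62 (SD, n = 6) in wild-type tumours, a difference of −0.52 (SE 0.27, 95% interval −1.10 to 0.07, limma unadjusted p = 0.0806, adjusted p = 0.589). The corresponding fold is 0.699, with an interval of 0.465 to 1.05. The difference was −0.39 within slide 1 and −0.60 within slide 2. Without wild-type replicate 3, the highest tumour, it was −0.31.

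miR-34c-5p, made from the same locus, had nearly the same order of tumours. In deficient tumours its lowest, median and highest levels were 5.20, 5.80 and 6.21, and the extremes were again replicates 1 and 4. In wild-type tumours they were 5.21, 5.92 and 7.25, and the extremes were again replicates 4 and 3. Here 2 wild-type tumours lay above every deficient one, and 6 of 7 deficient tumours lay below the wild-type median. The mean was 5.66 ± 0.37 (SD, n = 7) in deficient and 6.11 ± 0.75 (SD, n = 6) in wild-type tumours, a difference of −0.45 (SE 0.31, 95% interval −1.11 to 0.21, limma unadjusted p = 0.169, adjusted p = 0.644). This is a fold of 0.733, with an interval of 0.464 to 1.16. The difference was −0.28 within slide 1, −0.50 within slide 2 and −0.22 without wild-type replicate 3.

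Of the 3 tested forms, 0 passed an adjusted p of 0.05 in limma, where 0% of all 419 tested miRNAs passed. At an unadjusted p under 0.05 there were 0 of the 3 forms and 16 of 419 miRNAs, or 3.82%. Of these, 6 (1.43%) were lower and 10 (2.39%) higher in deficient tumours. The mean was lower in deficient tumours for 3 of 3 forms, with a median difference of −0.45. Among all tested miRNAs 45.8% had a lower mean in deficient tumours and the median difference was 0.04. miR-34b-5p and miR-34c-5p share a locus and are not separate evidence. By unadjusted p, miR-34b-5p ranked 39 of 419, miR-34c-5p 109 and miR-34a-5p 334.

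Measurement error within an array was small beside the spread between tumours. Each form was read by 2 probes of 20 spots, and the standard error over spots was 0.011 to 0.025 for miR-34a-5p, 0.016 to 0.046 for miR-34b-5p and 0.023 to 0.078 for miR-34c-5p. The SD over the 13 tumours was 0.70, 0.55 and 0.60 for these forms, against a median of 0.53 over all tested miRNAs. When tumours were put in order of level, 3 of the 12 gaps between neighbours were within 2 standard errors over spots for miR-34a-5p, 5 for miR-34b-5p and 8 for miR-34c-5p. Neighbours separated by such gaps have no settled order. The share of spots well above background per tumour was 100% for miR-34a-5p, 30.8% to 100% for miR-34b-5p and 12.5% to 100% for miR-34c-5p, so that the miR-34b/c locus was read closer to background than miR-34a-5p.

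The probes of each form gave similar differences. They were −0.18 and −0.09 for miR-34a-5p, whose probes correlated at 0.989 across the tumours, and −0.51 and −0.52 for miR-34b-5p, at 0.985. For miR-34c-5p they were −0.33 and −0.41, at 0.862, and the dimmer probe was at the floor on 9 of 13 arrays. The floor was 4.10 on the log2 scale, or 17.2 on the linear scale.

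The loci were then set against each other. miR-34b-5p and miR-34c-5p followed one another closely across the 13 tumours, and neither followed miR-34a-5p. For miR-34b-5p with miR-34c-5p Pearson's r was 0.979 (permutation p = 1e-05, the smallest that 100000 permutations can give, adjusted p = 3e-05 over 3 pairs) and Spearman's rho was 0.962 (permutation p = 2e-05, adjusted p = 6e-05). It was 0.971 in deficient and 0.989 in wild-type tumours, 0.946 within slide 1 and 0.985 within slide 2. Without wild-type replicates 3 and 6, the tumours farthest from the median of miR-34c-5p, r was 0.949. Pairs of 1 probe for each form gave r of 0.841 to 0.978. How far probes of these related sequences bind each other's miRNA was not tested.

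For miR-34b-5p with miR-34a-5p r was −0.0736 (permutation p = 0.803, adjusted p = 0.803) and rho was −0.231 (permutation p = 0.449, adjusted p = 0.67). Within groups r was 0.199 in deficient and −0.30 in wild-type tumours, and within slides it was −0.0398 and −0.152. For miR-34c-5p with miR-34a-5p r was −0.0947 (permutation p = 0.757, adjusted p = 0.803) and rho was −0.132 (permutation p = 0.67, adjusted p = 0.67). Within groups it was 0.27 in deficient and −0.315 in wild-type tumours, and within slides 0.152 and −0.254. Without wild-type replicate 5 and deficient replicate 6, which are highest for miR-34a-5p, these were −0.0477 and −0.0219. A relation between the loci was thus not detectable with 13 tumours.

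**Figure D2:**
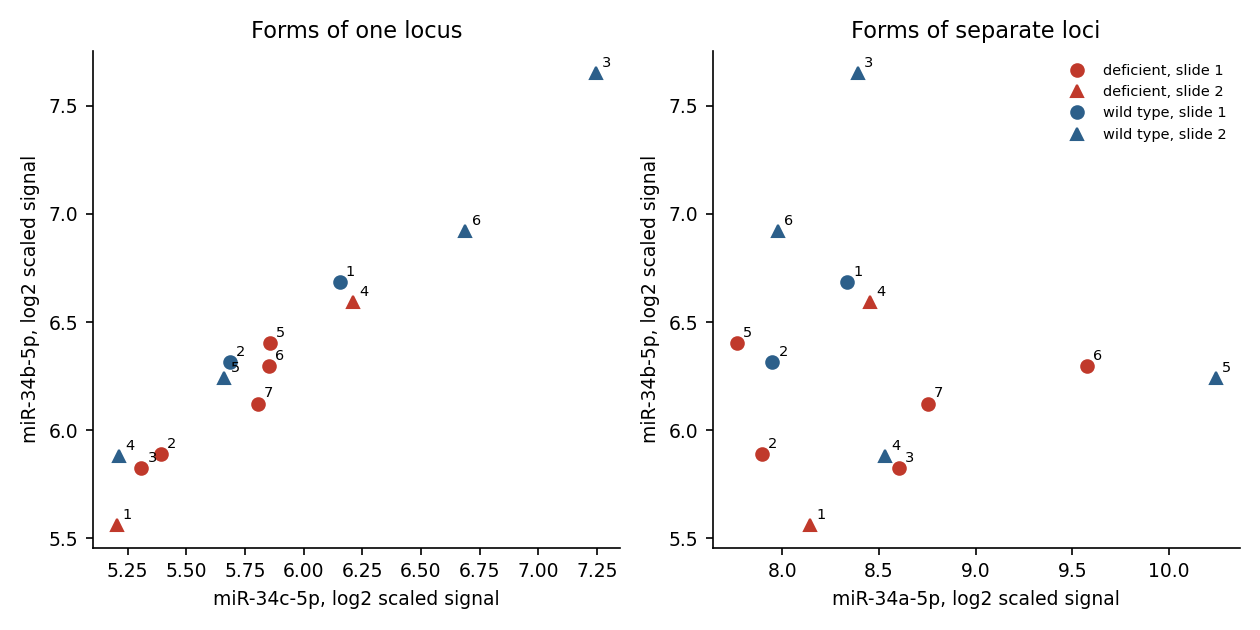
Log2 scaled signal of miR-34b-5p against miR-34c-5p, left, and against miR-34a-5p, right. Each point is 1 of 13 tumours with its replicate number (red deficient, blue wild type, circles slide 1, triangles slide 2). The points of the left panel lie along a line (r 0.979), and those of the right panel do not (r −0.0736).

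Within-tumour differences between forms gave the same contrast as numbers. Their absolute size depends on probe brightness, so that only their spread and group difference are read, and no test was made. miR-34b-5p minus miR-34c-5p varied over only 0.433 across the 13 tumours, while miR-34b-5p minus miR-34a-5p varied over 3.26 and miR-34c-5p minus miR-34a-5p over 3.44. The mean of miR-34b-5p minus miR-34a-5p was −2.36 ± 0.65 (SD, n = 7) in deficient and −1.96 ± 1.20 (SD, n = 6) in wild-type tumours, a difference of −0.40 against a pooled SD of 0.94. It was −0.77 within slide 1 and −0.11 within slide 2. For miR-34c-5p minus miR-34a-5p the difference was −0.33 against a pooled SD of 0.99, with −0.65 within slide 1 and −0.01 within slide 2. For miR-34b-5p minus miR-34c-5p it was −0.07 against 0.13. All of these were smaller than the spread between tumours.

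The miRNAs whose levels most resembled each form differed between the loci. This largely follows from the correlations between the forms given above and is not separate evidence. Likeness is Pearson's r over the 13 tumours among the other 418 tested miRNAs, given as a description, since all miRNAs of a tumour share an array and its scaling. For miR-34a-5p the 5 highest were miR-146a-5p at 0.857, miR-342-3p at 0.856, miR-30d-5p at 0.844, miR-181b-5p at 0.751 and miR-21-5p at 0.738. miR-146a-5p is an NF-kappaB-induced miRNA of immune cells, and miR-21-5p is abundant in many tumours. Without wild-type replicate 5 and deficient replicate 6 these were 0.597, 0.572, 0.40, 0.301 and 0.399, each lower than over all 13. The 3 lowest were miR-192-5p at −0.594, miR-7b-5p at −0.543 and miR-199b-5p at −0.521, and without the same tumours −0.634, −0.257 and −0.392. miR-34b-5p ranked 291 of 418 and miR-34c-5p ranked 306.

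For miR-34b-5p the highest was miR-34c-5p, followed by miR-153-3p at 0.897, miR-129-2-3p at 0.853, miR-384-5p at 0.85 and miR-376b-5p at 0.846. miR-153 and miR-129 are known from neurons, and miR-376b belongs to the imprinted Dlk1-Meg3 cluster. The mean of miR-153-3p was 4.47 in deficient and 5.62 in wild-type tumours, the former close to the floor of 4.10. For miR-34c-5p the highest was miR-34b-5p, followed by miR-153-3p at 0.878, miR-384-5p at 0.875, miR-138-5p at 0.863 and miR-376b-5p at 0.858. Without the 2 tumours farthest from the median of each form, miR-153-3p was at 0.776 with miR-34b-5p and 0.548 with miR-34c-5p, and miR-138-5p at 0.364 with miR-34c-5p. Within slide 1 the 4 others named for miR-34b-5p ranged from 0.511 to 0.665, and within slide 2 from 0.887 to 0.962. The lowest were miR-712-3p at −0.767, miR-3058-3p at −0.757 and miR-2861 at −0.753 for miR-34b-5p, and miR-2861 at −0.817, miR-3058-3p at −0.803 and miR-680 at −0.761 for miR-34c-5p. Without the 2 farthest tumours these were −0.661, −0.64 and −0.59, and −0.378, −0.405 and −0.325. Within slide 1 they ran from −0.767 to −0.271 for miR-34b-5p and from −0.554 to −0.256 for miR-34c-5p. Within slide 2 they ran from −0.942 to −0.839 and from −0.956 to −0.909. miR-34a-5p ranked 224 for miR-34b-5p and 229 for miR-34c-5p.

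**Figure D3:**
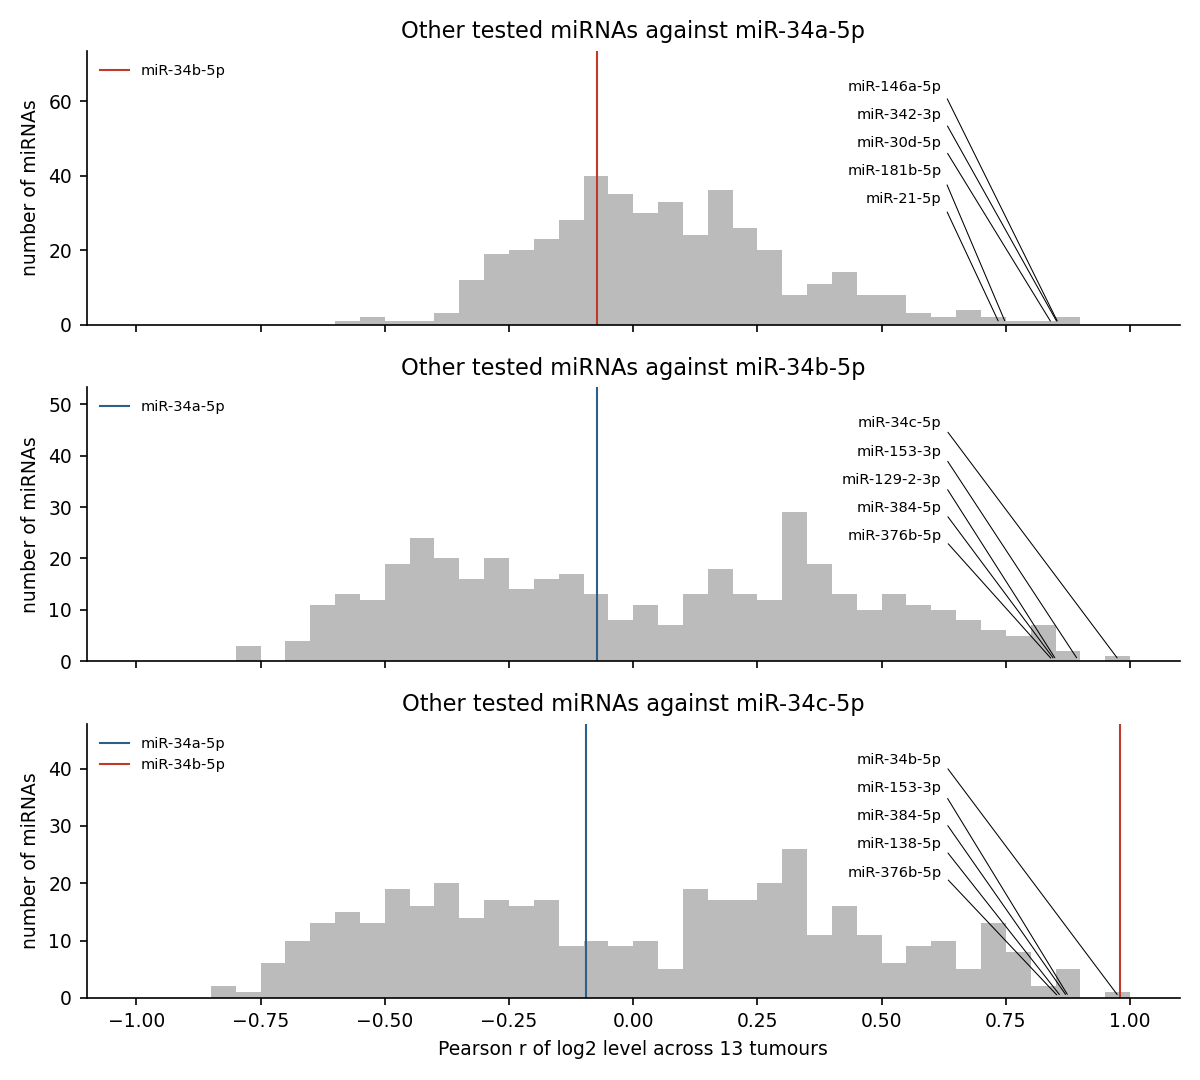
Number of other tested miRNAs at each Pearson r (13 tumours, bins of r) with miR-34a-5p, miR-34b-5p and miR-34c-5p. Labelled lines mark the 5 highest, and vertical lines mark miR-34a-5p and miR-34b-5p, each in the panels of the other forms. From the 5th to the 95th percentile the values run from −0.296 to 0.504 for miR-34a-5p, from −0.591 to 0.70 for miR-34b-5p and from −0.648 to 0.722 for miR-34c-5p.

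Because tumours are mixtures, markers of cell types were read beside these values. In such bulk samples fewer cells of a type and less RNA per cell cannot be told apart. All 9 listed neuronal miRNAs were tested, each detected on 9 to 13 arrays. Their summed linear level was 3999 to 6624 in deficient and 3483 to 8169 in wild-type tumours, and the r of its log2 value was 0.591 with miR-34b-5p, 0.565 with miR-34c-5p and −0.456 with miR-34a-5p. The brightest member, miR-218-5p, made up 46.5% to 71.0% of the sum, and its own r with these forms was 0.34, 0.299 and −0.453. The sum of the other 8 had r of 0.833, 0.834 and −0.281. Without the 2 tumours farthest from the median of each form, the r of the full sum was 0.285, 0.47 and −0.0709. Within slide 1 the r of the full sum was 0.277, 0.0776 and −0.611, and within slide 2 it was 0.705, 0.719 and −0.394. These values, and the like for other lists, were chosen after seeing the data. Within the list, miR-124-3p, the most neuron-restricted member, had an r of 0.748 with miR-34b-5p, and miR-138-5p 0.835, whereas miR-9-5p had −0.542. Of the 9, 0 passed the threshold, 6 had a lower mean in deficient tumours and the median difference was −0.31. Among all 419 tested miRNAs 0 passed, 192 had a lower mean and the median difference was 0.04. The 3 neuroendocrine miRNAs, miR-375-3p, miR-7a-5p and miR-7b-5p, summed to 2950 to 7926 in deficient and 4442 to 9429 in wild-type tumours, with r of 0.653, 0.665 and −0.05 for miR-34b-5p, miR-34c-5p and miR-34a-5p, and of 0.67, 0.576 and −0.372 without the 2 farthest tumours. Their differences were −0.14, −0.50 and −0.29, and 0 passed the threshold, as among all 419 tested miRNAs. The part of neuronal or neuroendocrine content in the miR-34b-5p and miR-34c-5p levels was not tested.

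Of the 6 leukocyte miRNAs 5 were tested, and miR-150-5p, detected on 5 arrays, was not. Their summed level was 850.5 to 4284 in deficient and 706.8 to 5978 in wild-type tumours, and its r was 0.593 with miR-34a-5p, −0.281 with miR-34b-5p and −0.252 with miR-34c-5p. Without wild-type replicate 5 and deficient replicate 6 the r with miR-34a-5p was −0.0364, so that it rests on those tumours. miR-142-3p and miR-223-3p, the most blood-restricted members, had r of 0.485 and 0.54 with miR-34a-5p, below the 0.857 of miR-146a-5p. The part of leukocyte content in the miR-34a-5p level was not tested.

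Other miRNAs tied to p53 were counted from a list. Of 10 miRNAs reported to be induced or matured under p53 control, 7 were tested and 0 passed the threshold, with 5 higher and 2 lower means in deficient tumours and a median difference of 0.16. Among all 419 tested miRNAs 0 passed, 227 had a higher and 192 a lower mean in deficient tumours, and the median difference was 0.04. miR-145-5p, a smooth muscle miRNA, had the largest of these differences at 0.70 (SE 0.28, limma adjusted p = 0.589), with a mean of 6.01 ± 0.25 (SD, n = 7) in deficient and 5.31 ± 0.69 (SD, n = 6) in wild-type tumours. Its neighbour miR-143-3p differed by 0.28, and the cell cycle regulators miR-15a-5p and miR-16-5p by 0.21 and 0.16. miR-192-5p, miR-194-5p and miR-107-3p differed by 0.09, −0.20 and −0.04. miR-215-5p, miR-200c-3p and miR-141-3p were detected in no tumour. With miR-34a-5p the r of the 7 ran from −0.594 for miR-192-5p up to 0.293 for miR-15a-5p. With miR-34b-5p and miR-34c-5p it ran from −0.521 and −0.421 for miR-15a-5p up to 0.531 and 0.618 for miR-107-3p. The log2 of the list's summed level had an r of 0.183 with miR-34a-5p, with 0.888 within slide 1 and −0.0663 within slide 2.

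Of 4 miRNAs known to target the p53 transcript, 3 were tested and miR-504-5p was detected in no tumour. miR-125b-5p differed by −0.12, miR-25-3p by 0.37 (SE 0.19, limma adjusted p = 0.589) and miR-30d-5p by −0.02. As among all 419 tested miRNAs, 0 passed the threshold. miR-25-3p had an r of −0.653 with miR-34b-5p and 0.0111 with miR-34a-5p. miR-30d-5p had −0.138 with miR-34b-5p and, as above, 0.844 with miR-34a-5p.

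**Figure D4:**
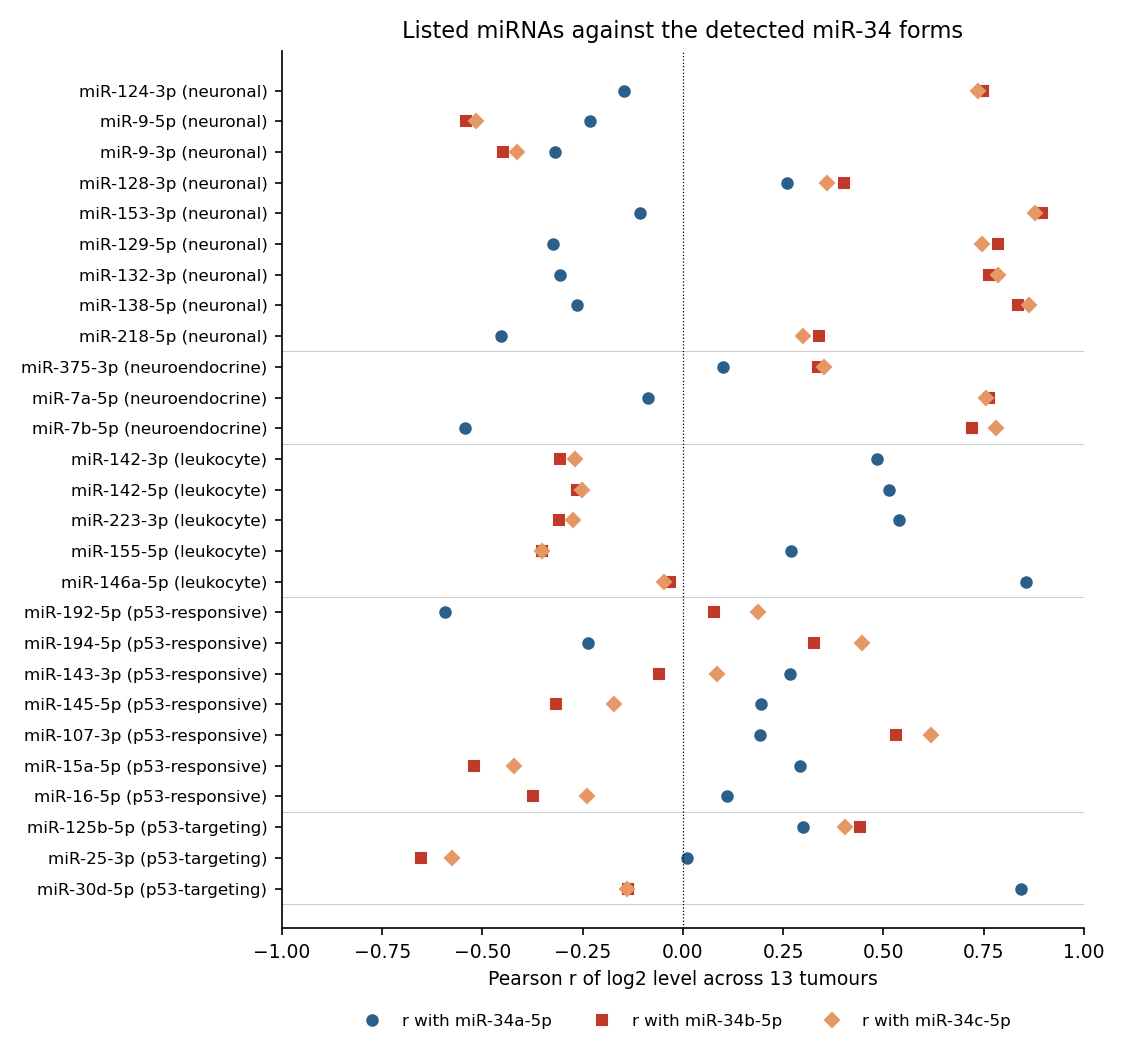
Pearson r over 13 tumours of each tested miRNA of the neuronal, neuroendocrine, leukocyte, p53-responsive and p53-targeting lists with miR-34a-5p (circles), miR-34b-5p (squares) and miR-34c-5p (diamonds). Squares and diamonds lie close together in every row, from −0.653 for miR-25-3p up to 0.897 for miR-153-3p with miR-34b-5p, while circles lie apart from them in most rows. The closeness of squares and diamonds follows from the correlation of miR-34b-5p with miR-34c-5p.

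The differences were recomputed under 29 alternatives, which are not all separate checks. Those of the filter and the variance model cannot move a difference, only its error or adjusted p. The replicate block gave the same differences as leaving out deficient replicate 7. miR-34b-5p stayed below 0 in all of them, between −0.66 and −0.26, and miR-34c-5p between −0.63 and −0.22. miR-34a-5p ranged from −0.49 to 0.38. None of the 3 forms passed the threshold under any alternative, and the lowest adjusted p was 0.759 for miR-34a-5p, 0.399 for miR-34b-5p and 0.476 for miR-34c-5p.

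**Figure D5:**
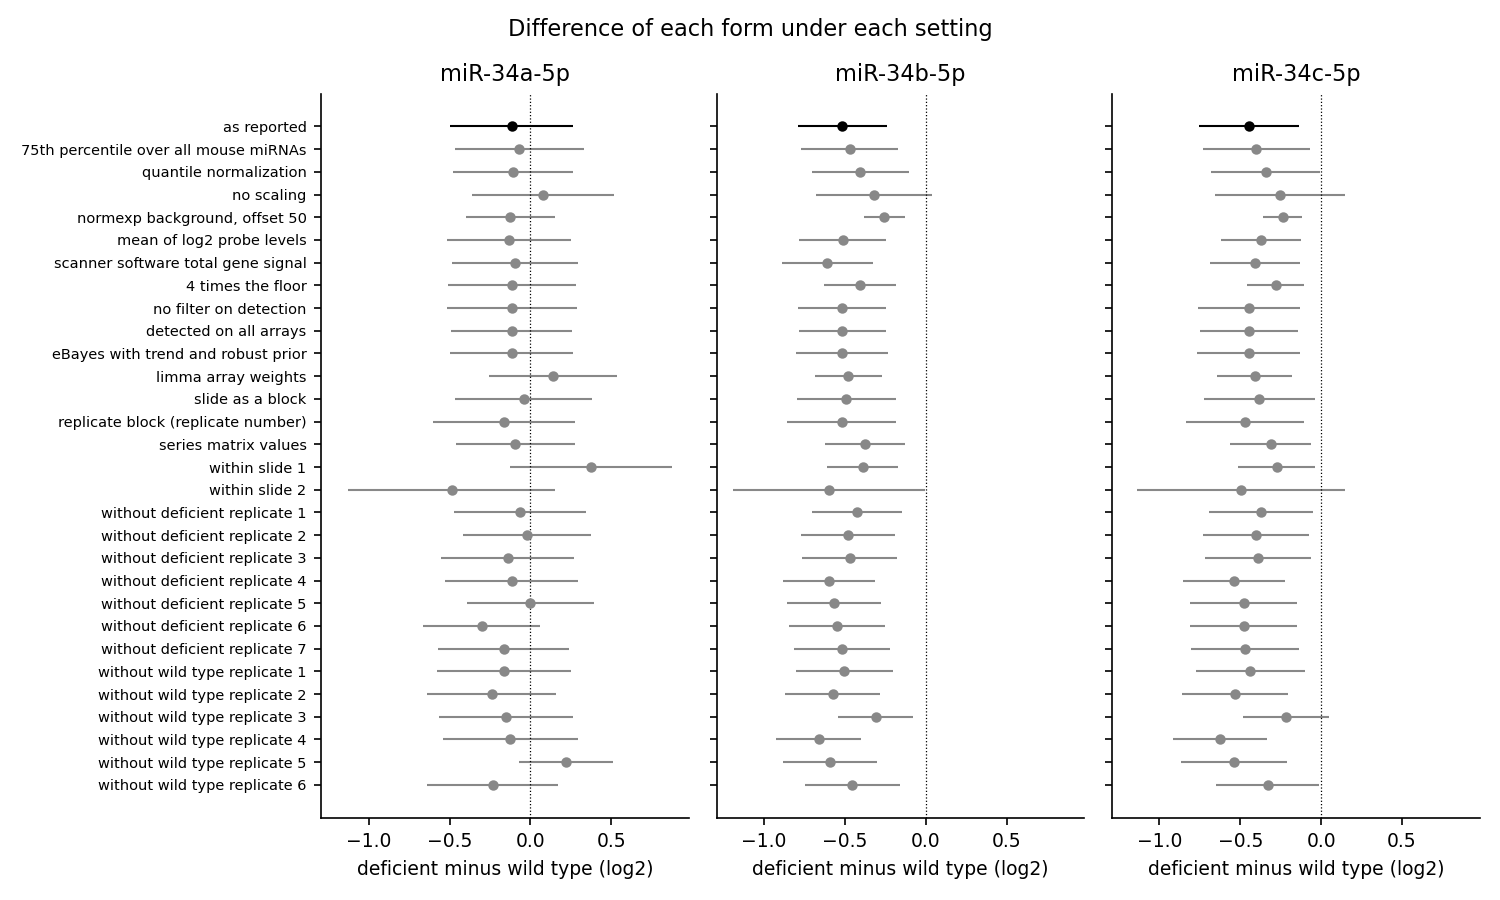
Difference (deficient minus wild type, log2) of miR-34a-5p, miR-34b-5p and miR-34c-5p as reported, in black, and under each alternative, in grey. Bars are ± 1 SE of the fit and the dotted line is 0. Points of miR-34b-5p and miR-34c-5p lie left of 0 in every row, and those of miR-34a-5p lie on both sides.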

How the data were processed

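The deposited scanner files gave the intensity of each spot, background-subtracted and detrended by the authors' Feature Extraction software (10.7.3.1 per the file headers, 10.5.1.1 per the submitters' processing notes), with no scaling between arrays. Detection, outlier and background marks are other deposited values, yes or no, used as given. The authors' deposited normalised table held log2 values with equal distributions across arrays (sorted columns differed by at most 0.00219, median 3.82). All 13 columns matched their own array. Its software is not given in the sources used here. It was used as an alternative. The array design named build mm9.

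Each array had 47604 spots, of which 2164 controls were left out. No spot was saturated. Unmarked spots were averaged per probe, probes summed per miRNA, and sums scaled by each array's 75th percentile of the 294 miRNAs that every array detected, with a floor at percentile 1 of detected values. Tests covered the 419 miRNAs detected on 6 or more arrays and used limma 3.58.1 (lmFit, eBayes, R 4.3.3), two-sided, Benjamini-Hochberg adjusted, threshold 0.05. Precision is limited by the number of arrays: a 95% interval reached a median of 0.63 to either side of the difference. Correlations used 100000 permutations, or exact enumeration within slides. The fit was tested on simulated data.

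Named miRNAs were all miR-34 forms, the seed and p53 lists, and per tested form the 5 highest and 3 lowest in Pearson r. miR-124-3p, miR-9-5p, miR-142-3p and other cell type markers come from 11 marker lists. The members and lists were chosen with earlier results of these data known. Alternatives varied the scaling, the background (normexp on median signals, offset 50), the probe summary, the filter, the floor, the variance model, weights of arrays, slide, replicate number, the value table and the set of tumours (each left out in turn).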

Additional observations from a re-analysis of the deposited data

Results flagged for a closer look

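miR-34a-5p in wild-type replicate 5 was at 10.2423 on the log2 scale, far from the other 5 wild-type tumours, the nearest of which was at 8.53. The gap was 0.746 of the group's range, against a critical value of 0.625 for 6 samples in Dixon's test. Of 12 groups of values examined it was the only one with such a tumour, and chance alone gives such a tumour in about 1 in 20 groups. The standard error over its 36 spots was 0.0116. Without this tumour the difference of miR-34a-5p was 0.22 in place of −0.12. The cause was not tested.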

How the results depend on the processing

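The count of miRNAs past the threshold, and of miR-34 forms among them, was 0 under all 29 alternatives, with 7 to 63 miRNAs at an unadjusted p under 0.05. The difference of miR-34a-5p turned positive with no scaling (0.0782), array weights (0.141), within slide 1 (0.376) and without wild-type replicate 5 (0.219). Leaving out 1 tumour gave −0.302 to 0.219 for it, −0.663 (without wild-type replicate 4) to −0.309 (replicate 3 of that group left out) for miR-34b-5p, and −0.626 to −0.22 for miR-34c-5p without the same tumours. Normexp gave −0.258 for miR-34b-5p and −0.238 for miR-34c-5p. The locus differences for miR-34b-5p minus miR-34a-5p ran from −0.81 without wild-type replicate 5 up to −0.158 when replicate 3 of that group was left out, from −0.755 to −0.0681 for miR-34c-5p minus miR-34a-5p without the same tumours (−0.0106 within slide 2), and from −0.124 to −0.0374 for miR-34b-5p minus miR-34c-5p, which was −0.20 with the scanner software's total gene signal. The correlation of miR-34b-5p with miR-34a-5p, called in no setting, turned positive with the percentile over all miRNAs (0.0235), no scaling (0.225) and normexp (0.00713). That of miR-34c-5p with miR-34a-5p did so in these (0.00947, 0.234 and 0.00886), with the normalised table (0.00188) and within slide 1 (0.152). The correlation of miR-34b-5p with miR-34c-5p stayed between 0.827 and 0.991 and past the threshold in all 25 alternatives. miR-34c-5p ranked first for miR-34b-5p in 8 of 8 processing alternatives and miR-34b-5p first for miR-34c-5p in 6 of 8. The cause of these changes was not tested.

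With the replicate block the differences of miR-34a-5p, miR-34b-5p and miR-34c-5p were −0.165, −0.52 and −0.471, and no call changed. Same-numbered tumours had correlations of −0.22 to 0.194 over 6 numbers, 3 of them over 0.1. These low values do not show a pairing by number, but so few cannot exclude one. With the replicate block 63 of 419 miRNAs had an unadjusted limma p under 0.05, against 16 as reported. The block draws no difference from deficient replicate 7, which has no wild-type tumour of its number. Leaving out that tumour without a block gave 37. 1 deficient tumour correlated best with its own number. With slide as a block the differences were −0.0401, −0.491 and −0.382. Signal near background limits miR-34c-5p most.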

Other observations

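The remaining marker lists gave no miRNA past the threshold, and neither did the 419 tested miRNAs as a whole. The erythroid miRNAs miR-451, miR-144-3p and miR-144-5p, 3 of 4 listed, which accumulate in maturing red cells, had higher means in deficient tumours by 0.95, 0.72 and 1.12. Their summed level ran from 19991 to 83796 in deficient and from 4994 to 69268 in wild-type tumours, with r of −0.555 with miR-34b-5p and −0.22 with miR-34a-5p. Without wild-type replicate 3 and deficient replicate 1 the r with miR-34b-5p was 0.213, while within slides it was −0.565 and −0.573. With miR-34c-5p it was −0.406 over all 13 tumours and −0.438 without wild-type replicates 3 and 6. Within slides it was −0.326 and −0.434 for that form. The endothelial miR-126-3p and miR-126-5p differed by 0.51 and 0.20 and summed to 1110 to 4494 in deficient and 1522 to 2850 in wild-type tumours, with r of 0.363 with miR-34a-5p. The 4 skeletal muscle miRNAs, of which miR-206-3p is specific to that tissue, varied over 6.66 on the log2 scale across the 13 tumours, against 4.07 for the erythroid sum. On the linear scale they summed to 88.7 to 8994 in deficient and 163.3 to 3588 in wild-type tumours, with r of −0.0608, 0.201 and 0.199 with miR-34a-5p, miR-34b-5p and miR-34c-5p. The 5 stromal miRNAs summed to 824.5 to 2218 in deficient and 994.5 to 2641 in wild-type tumours, with r of 0.293 with miR-34a-5p. Pancreatic miR-216a-5p, miR-216b-5p and miR-217-5p were detected in no tumour, and hepatic miR-122-5p in 1. Of 7 miRNAs of gut or kidney epithelium 4 were detected in no tumour, and the 2 tested ones, miR-192-5p and miR-194-5p, had r of −0.594 and −0.236 with miR-34a-5p.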
